A study of Mus musculus with 18 samples.

Results

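Fga, Fgb and Fgg, the genes of the 3 chains of fibrinogen, and Fgl1, a gene of a fibrinogen-like secreted protein, were followed through the response of mouse liver to the cytokine IL-1β. They were found by gene symbol in the gene count tables of 3 library kits and are 4 of the 21018 genes listed in at least 1 of these tables, and all 4 are listed in each. The liver RNA came from 12-week-old male C57/B6J mice, 3 given 20 µg/Kg of IL-1β and 3 given saline by intraperitoneal injection 4 hours before collection. The RNA of each mouse was made into a library with the Pico kit (stranded, total RNA), the V4 kit (unstranded, poly(A) RNA) and the TruSeq kit (stranded, poly(A) RNA), giving 18 libraries. The study compared the kits, which also differed in RNA amount, and the TruSeq libraries were read with shorter reads on another sequencer than those of Pico and V4, so that a kit and these differences cannot be told apart. Both treatments are present in each kit, and IL-1β was compared with saline within each kit. The IL-1β mice are called I9579, I9582 and I9583 here, and those given saline U9574, U9575 and U9576.

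Fibrinogen is a plasma protein that hepatocytes assemble from pairs of Aα, Bβ and γ chains, encoded by Fga, Fgb and Fgg, before they secrete it. Thrombin cuts it to fibrin, which forms the mesh of a blood clot and is crosslinked by factor XIII. It is a positive acute-phase protein, made in larger amounts during inflammation, and IL-6 acting through STAT3 is the best known inducer of its genes in hepatocytes. Fgl1, also called hepassocin, is secreted by hepatocytes too, carries the globular domain of the fibrinogen family and binds the T cell receptor LAG-3.

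In the GENCODE annotation of mm9 the chain genes lie side by side on chromosome 3, in a cluster of 41945 bases. Fgg (ENSMUSG00000033860, chr3:82811781-82818975, plus strand) is followed after 11099 bases by Fga (ENSMUSG00000028001, chr3:82830075-82838036, plus strand) and after a further 8132 bases by Fgb (ENSMUSG00000033831, chr3:82846169-82853725, minus strand). Fgl1 (ENSMUSG00000031594, chr8:42276788-42300510, minus strand) lies on another chromosome. The longest coding transcript has 6 exons and 2637 bases for Fga, 8 exons and 1644 bases for Fgb, 9 exons and 1743 bases for Fgg, and 8 exons and 1120 bases for Fgl1. No other annotated gene overlaps any of the 4, so the counting of both strands in V4 adds no reads of an annotated antisense gene to them.

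The promoters of the chain genes are shown because the 3 genes moved together. RefSeq (GRCm38.p6) gave a promoter for 3 of the 4 members, and the 250 bases before each start are written 5′ to 3′ on the strand of the gene, with the letters CTGGGA, the core of the IL-6 response element known from rat fibrinogen genes, in capitals.
Fgg, chr3:83007474-83007723, plus strand: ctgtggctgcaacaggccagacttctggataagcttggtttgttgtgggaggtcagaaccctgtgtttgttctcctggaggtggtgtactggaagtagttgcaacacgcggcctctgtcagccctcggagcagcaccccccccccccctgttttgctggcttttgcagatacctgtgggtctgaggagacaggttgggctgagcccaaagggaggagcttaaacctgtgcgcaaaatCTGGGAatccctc
Fga, chr3:83025903-83026152, plus strand: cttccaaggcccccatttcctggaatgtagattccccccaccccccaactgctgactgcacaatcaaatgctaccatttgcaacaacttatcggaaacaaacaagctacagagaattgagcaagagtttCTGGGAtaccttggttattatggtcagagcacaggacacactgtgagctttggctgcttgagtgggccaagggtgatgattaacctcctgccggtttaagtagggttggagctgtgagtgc
Fgb, chr3:83049864-83050113, minus strand: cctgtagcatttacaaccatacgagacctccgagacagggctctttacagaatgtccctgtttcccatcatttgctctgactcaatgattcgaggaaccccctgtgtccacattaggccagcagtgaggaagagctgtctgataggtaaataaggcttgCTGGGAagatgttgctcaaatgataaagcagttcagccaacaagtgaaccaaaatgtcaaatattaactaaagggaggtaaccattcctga

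Each of these 3 stretches occurs once, letter for letter, in mm9, at chr3:82811396-82811645 for Fgg, chr3:82829825-82830074 for Fga and chr3:82853786-82854035 for Fgb. The RefSeq start is the GENCODE start for Fga, whereas the GENCODE start lies 135 bases farther downstream for Fgg and 60 for Fgb. CTGGGA stands once in each, on the strand of the gene, at -13 to -8 from the RefSeq start in Fgg, -121 to -116 in Fga and -91 to -86 in Fgb. Counted from the GENCODE start, the match in Fgg is at -148 to -143 and that in Fgb at -151 to -146. Of 32851 mouse promoters of the same length, 27.0% hold these letters on either strand, so a match in one promoter is common.

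Other letters were shared by the windows of Fga and Fgb but had no match in that of Fgg. Each window ends at the RefSeq start, from which the positions are counted. The 135 bases between this start and the GENCODE start of Fgg, and the 60 of Fgb, were therefore not searched. From the GENCODE start, the Fgg window leaves out the nearest bases, so a missing match there is not a difference between promoters. GTTAAT, a half-site of the liver factor HNF1, was found on the opposite strand at -43 to -38 in Fga and -29 to -24 in Fgb, and 6.43% of promoters hold it. TTCNNNGAA, the form bound by STAT proteins, was found at -234 to -226 in Fga and -162 to -154 in Fgb, and 7.02% of promoters hold it. TTNNGNAA, a C/EBP form, had 1 match in Fga, at -135 to -128, and 2 in Fgb, at -206 to -199 and -80 to -73, and 36.8% of promoters hold it. An NF-kB form (GGG, 3 bases of any kind and TTCC, in 4.65% of promoters) and TATAAA, the TATA box (12.4%), had no match in the 3 windows. Both strands were searched for every motif, and none of the matches overlapped another. These matches are descriptions of letters and not of binding.

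All 3 chain genes and Fgl1 were higher after IL-1β in every kit, 3.14-fold to 4.04-fold for the chains and 2.65-fold to 2.88-fold for Fgl1. Levels are given in counts per 1000000 gene counts of the library (CPM). The gene counts of a library ranged from 4024632 to 4134070 (Pico), from 12013453 to 12352473 (V4) and from 12348864 to 12858237 (TruSeq). The lowest count of a member was 692, so counting error is small beside the spread between mice. Where a response is given, it is the log2 fold change of IL-1β over saline from limma-voom, fitted kit by kit to all listed genes, and a gene is called at a Benjamini-Hochberg adjusted p of at most 0.05.

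Fga encodes the Aα chain, from which thrombin releases fibrinopeptide A. In Pico, Fga stood at 10938, 10569 and 12586 CPM in mice I9579, I9582 and I9583 and at 3900, 3041 and 3042 CPM in saline mice U9574, U9575 and U9576. In V4 the same mice gave 13255, 12981 and 14607 CPM after IL-1β and 4435, 3865 and 3896 CPM after saline. TruSeq gave 18192, 17336 and 19896 CPM after IL-1β and 5373, 4124 and 4284 CPM after saline. The lowest IL-1β library was thus 2.71, 2.93 and 3.23 times the highest saline library of its kit, in the order Pico, V4 and TruSeq. The log2 fold change of Fga was 1.78 (SE 0.0822) in Pico, 1.75 (SE 0.0955) in V4 and 2.02 (SE 0.11) in TruSeq, with limma-voom adjusted p of 2.2e-10, 2.36e-06 and 3.03e-06.

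Fgb encodes the Bβ chain, whose synthesis is often described as limiting for the assembly of fibrinogen. Pico libraries held 12615, 12410 and 14404 CPM of Fgb after IL-1β and 4428, 3441 and 3767 CPM after saline. V4 libraries held 16498, 17276 and 21135 CPM after IL-1β and 7356, 5987 and 4438 CPM after saline. Fgb in V4 was the most scattered of the chain measurements, with saline mouse U9574 above and mouse U9576 below the remaining one, yet the groups did not overlap. TruSeq libraries held 14679, 13615 and 15578 CPM after IL-1β and 4477, 3388 and 3715 CPM after saline. Fgb rose by a log2 fold change of 1.77 (SE 0.0746) in Pico, 1.65 (SE 0.159) in V4 and 1.93 (SE 0.109) in TruSeq, with limma-voom adjusted p of 8.28e-11, 0.000132 and 3.7e-06.

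Fgg encodes the γ chain, which carries sites for factor XIII crosslinking and for the platelet integrin. For Fgg the Pico values were 10031, 9160 and 10418 CPM after IL-1β and 2894, 2353 and 2689 CPM after saline. The V4 values were 13894, 14070 and 14629 CPM after IL-1β and 4443, 3798 and 3316 CPM after saline. In TruSeq they were 12710, 11466 and 12362 CPM after IL-1β and 3427, 2762 and 2897 CPM after saline. The 3 IL-1β libraries of V4 lay close together, at 14198 ± 384 CPM (SD, n = 3). The log2 fold change of Fgg was 1.90 (SE 0.0685) in Pico, 1.89 (SE 0.107) in V4 and 2.01 (SE 0.0971) in TruSeq, with limma-voom adjusted p of 1.19e-11, 2.89e-06 and 1.71e-06.

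Fgl1 took far fewer counts than any of the chains. Pico counted it at 536, 507 and 676 CPM after IL-1β and 249, 168 and 236 CPM after saline. V4 counted 1248, 1051 and 1470 CPM after IL-1β and 495, 377 and 431 CPM after saline. TruSeq counted 902, 785 and 1110 CPM after IL-1β and 380, 270 and 321 CPM after saline. Its lowest IL-1β library was 2.04, 2.12 and 2.06 times its highest saline library in Pico, V4 and TruSeq. Fgl1 rose by a log2 fold change of 1.41 (SE 0.141) in Pico, 1.53 (SE 0.158) in V4 and 1.53 (SE 0.153) in TruSeq, with limma-voom adjusted p of 3.23e-06, 0.000208 and 7.94e-05.

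**Figure D1:**
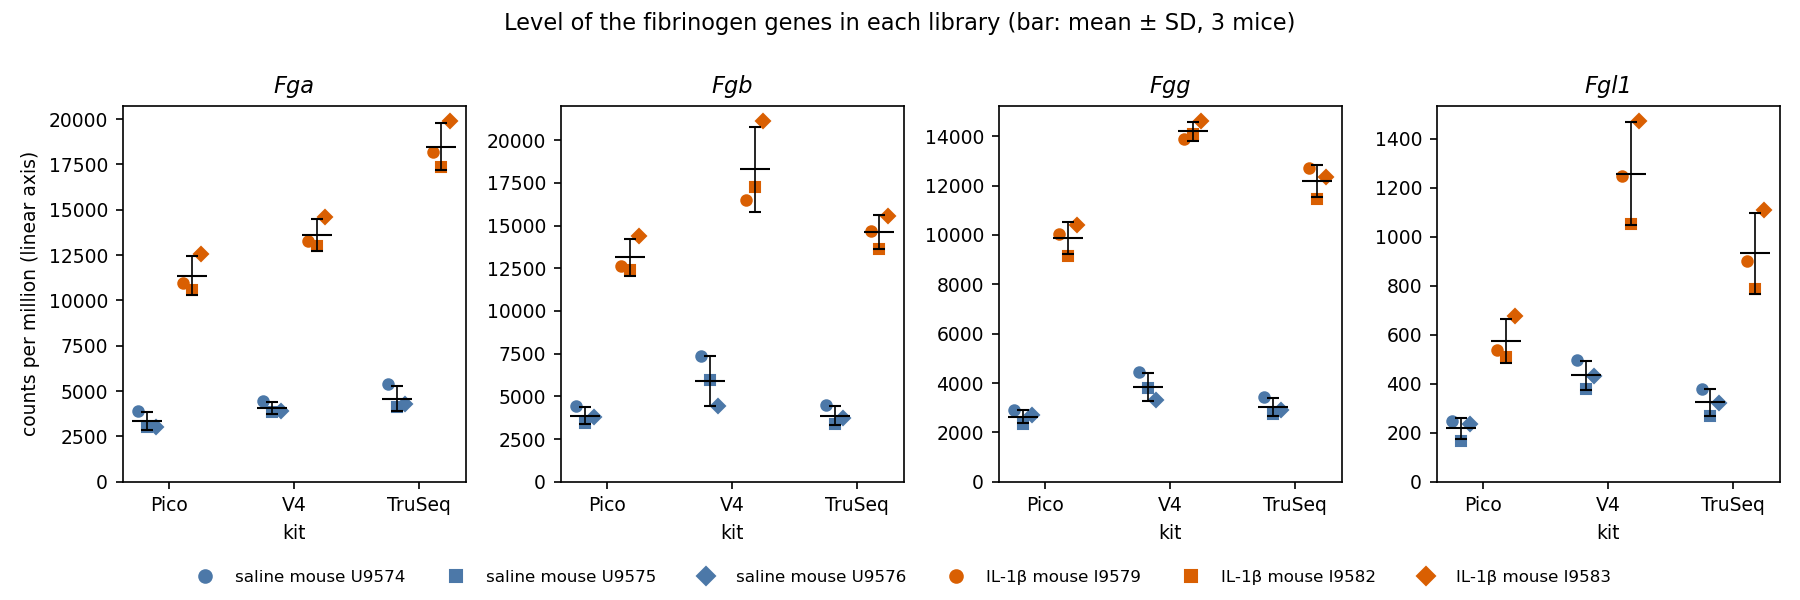
CPM (linear axis) of Fga, Fgb, Fgg and Fgl1 in each of the 18 libraries, by kit, with 1 point per mouse and a bar for the mean ± SD of 3 mice. In each panel and kit the 3 IL-1β libraries lie above the 3 saline libraries, with Fgl1 between 168 and 1470 CPM and the chains between 2353 and 21135 CPM.

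The groups did not overlap in 12 of 12 pairs of gene and kit. A higher level in all 3 IL-1β libraries was seen for 12.6% of the genes listed by Pico, 9.09% of those of V4 and 17.1% of those of TruSeq. All 4 members were called higher in each kit, against 6.78% (Pico), 3.6% (V4) and 12.3% (TruSeq) of all genes. Among all genes ordered by log2 fold change the members stood between place 385 (Fga in TruSeq) and place 1040 (Fgl1 in Pico), so many genes had a larger fold change. This order holds every gene with at least 1 count in the kit, also genes with few counts, whose fold changes are uncertain. Ordered by p the members stood between place 6 (Fgg) and place 136 (Fgl1) of 18108 in Pico, between place 11 (Fga) and place 89 (Fgl1) of 18051 in V4, and between place 31 (Fgg) and place 539 (Fgl1) of 19424 in TruSeq. In a liver sample, more cells that express a gene and more of its RNA in each cell cannot be told apart.

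**Figure D2:**
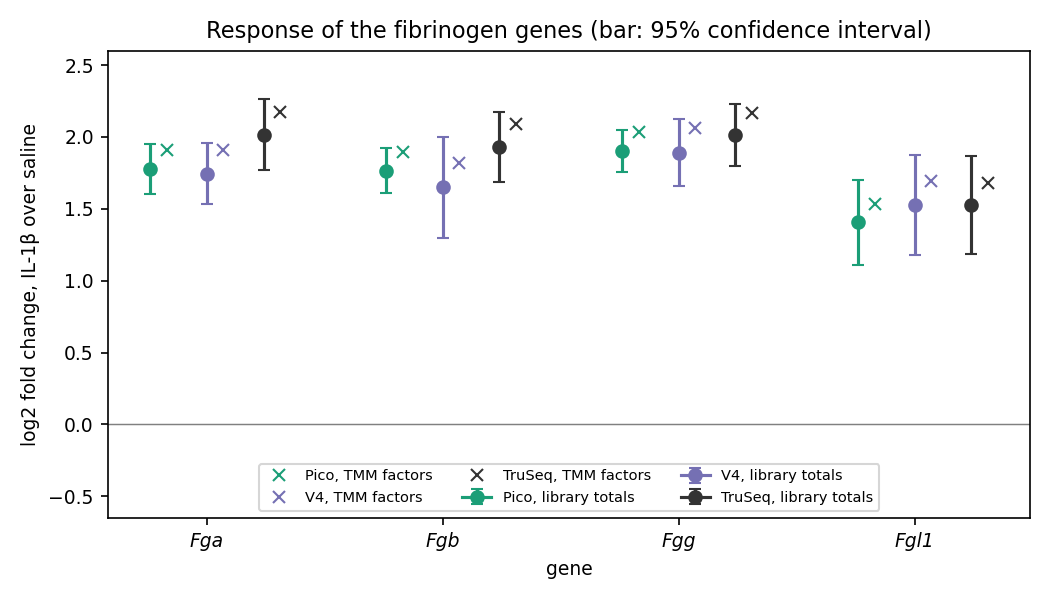
Log2 fold change of IL-1β over saline for each gene and kit, with circles and 95% confidence intervals for library totals and crosses for TMM factors. The circles lie between 1.41 and 2.02, the crosses lie higher in every case, and Fgl1 has the lowest circle in each kit.

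Scaling bears on the size of these values. With library totals the median gene had a log2 fold change of -0.12 (Pico), -0.22 (V4) and -0.17 (TruSeq), and TMM factors raised these medians by 0.13, 0.17 and 0.16. With TMM factors the log2 fold changes became 1.91, 1.91 and 2.17 for Fga, 1.90, 1.82 and 2.09 for Fgb, 2.03, 2.06 and 2.17 for Fgg, and 1.54, 1.70 and 1.68 for Fgl1, in the order Pico, V4 and TruSeq.

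Together the 3 chains took 0.985% ± 0.123 of the gene counts after saline and 3.44% ± 0.272 after IL-1β in Pico (SD, n = 3). In V4 the share went from 1.38% ± 0.23 to 4.61% ± 0.37, and in TruSeq from 1.15% ± 0.159 to 4.53% ± 0.272. The lowest share after IL-1β was 3.21% and the highest after saline was 1.62%, so no IL-1β library of any kit fell to the level of a saline library.

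Per kb of the longest coding transcript, the chains were among the most abundant messages of the liver. After IL-1β, Fgb was in place 10 of the genes of Pico, place 11 of V4 and place 8 of TruSeq, from places 30, 29 and 31 after saline. Fgg was in places 13, 15 and 12 after IL-1β and 45, 50 and 41 after saline. Fga was in places 20, 24 and 11 after IL-1β and 52, 62 and 40 after saline. Fgl1 moved from places 259, 232 and 212 to places 122, 88 and 86, all in the order Pico, V4 and TruSeq. The length of Fgl1 is less certain, because its merged exons, which include a retained intron, span 4434 bases, and by that length it was in places 343, 242 and 247 after IL-1β.

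The mice kept much of their order from gene to gene and from kit to kit. Saline mouse U9574 was the highest of the saline mice in 12 of 12 pairs of gene and kit, and mouse U9575 was the lowest in 10. Among the IL-1β mice, I9583 was the highest in 11 and I9582 the lowest in 10. The libraries of a mouse share its RNA, and the genes share the library, so these counts are descriptions. The exceptions included Fgg in TruSeq, where mouse I9579 was the highest, and Fgb and Fgg in V4, where mouse U9576 was the lowest of the saline mice.

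Whether the response differed between kits was tested on the 12 libraries of each pair of kits as an interaction between kit and treatment. The share of all genes called different was 0.0% in each pair, and 5.49%, 6.36% and 5.49% of genes had an unadjusted p under 0.05 between Pico and TruSeq, V4 and TruSeq, and Pico and V4. Here edgeR also called 0 genes in each pair and DESeq2 called 4, 72 and 17, none of them a member. Of the 12 tests on the members (4 genes in 3 pairs), 0 were called by limma-voom, edgeR or DESeq2, and 0 had an unadjusted p under 0.05 by any of these tools. With the mouse as a replicate block, limma-voom still called 0 of 12, and 5 had an unadjusted p under 0.05. Over all genes that fit called 1, 0 and 0, in the same order of pairs. An unadjusted p under 0.05 was then found for 1278 of 17207, 1263 of 17147 and 1022 of 16395 genes. Among the members, the smallest p with that block was that of Fga in Pico minus TruSeq, where the difference in log2 response was -0.238 (95% interval -0.545 to 0.07, limma-voom adjusted p = 0.91, and adjusted p = 0.075 with the mouse as a replicate block). In V4 minus TruSeq it was -0.27 for Fga (95% interval -0.581 to 0.0391) and -0.28 for Fgb (95% interval -0.747 to 0.186). The intervals of Fgl1 were wider, -0.609 to 0.368 for Pico minus TruSeq and -0.499 to 0.503 for V4 minus TruSeq. All these intervals come from the fit without the pairing by mouse. With the mouse as a replicate block, the difference of Fga in Pico minus TruSeq was -0.236 (limma-voom, unadjusted p = 1.31e-05) and that of Fgl1 -0.128 (unadjusted p = 0.139), so these intervals do not limit what the paired fit can detect.

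The balance of the chains was read from ratios inside a library, which need no scaling between libraries. As shares of the 3 chains per kb of transcript, Fgb made up 45.2% ± 0.913 in Pico, 47.0% ± 3.25 in V4 and 39.6% ± 0.9 in TruSeq (SD over 6 mice). Fgg made up 30.6% ± 1.5, 31.8% ± 2.23 and 30.2% ± 0.861, and Fga 24.2% ± 0.875, 21.2% ± 1.74 and 30.2% ± 0.692, in the same order. By the longest coding transcript, Fgb was thus the most abundant chain message in every kit. The order of Fgg over Fga seen in Pico and V4 was not seen in TruSeq, where these 2 chains did not differ beyond their spread. This order of the chains depends on the length used, since Fga has 3 coding transcripts, Fgg 2 and Fgb 1. A shorter length for Fga would raise its share, and by counts alone Fga exceeded Fgb in TruSeq (log2 ratio 0.29). Which transcripts the counts came from was not tested. With the length of the merged exons, chosen after the data were seen, Fgb made up 48.0%, 49.8% and 42.3%.

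**Figure D3:**
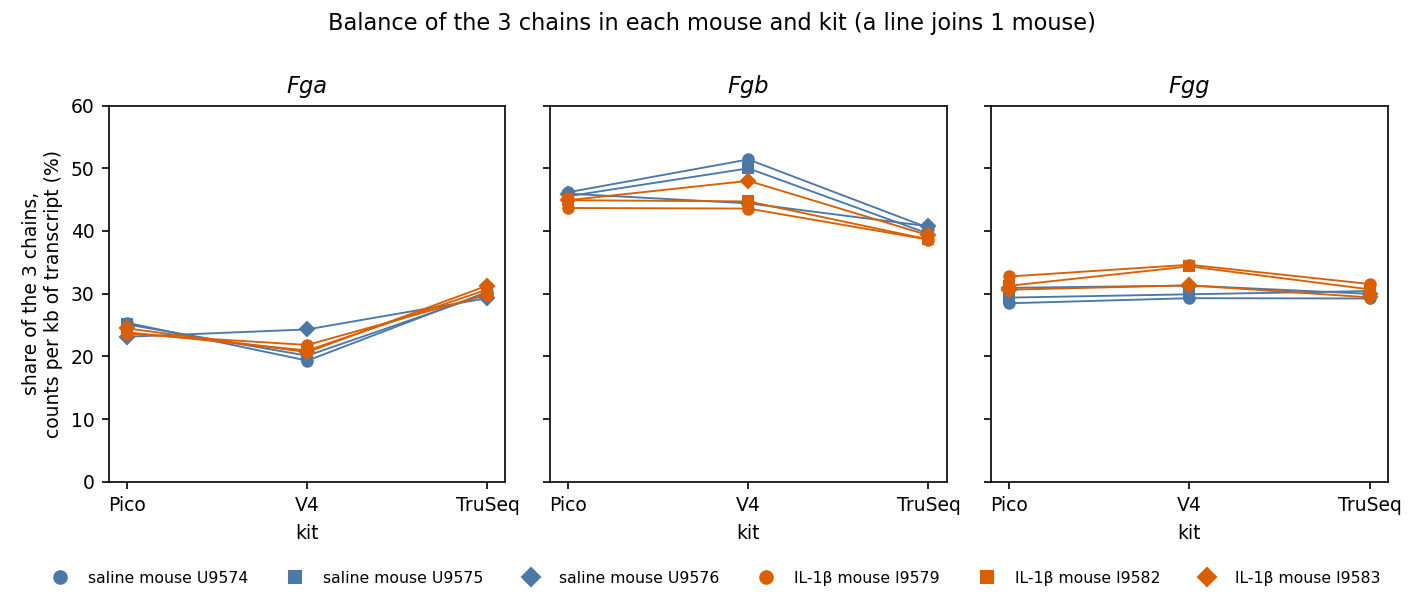
Share of each chain among the 3 chains (%, counts per kb of the longest coding transcript) in Pico, V4 and TruSeq, with 1 line per mouse, colored by treatment. Fga lies at 19.3% to 25.4% in Pico and V4 and at 29.3% to 31.3% in TruSeq in every mouse, and Fgb lies lowest in TruSeq in every mouse.

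The ratio of Fga to Fgb depended on the kit. In log2 counts it averaged -0.22 in Pico, -0.47 in V4 and 0.29 in TruSeq. It was lower in Pico than in TruSeq in 6 of 6 mice, with a difference of -0.51 ± 0.05 (SD of the differences; exact sign-flip permutation test, two-sided, p = 0.031, adjusted p = 0.0417 over 12 comparisons). The same held for V4 minus TruSeq, at -0.76 ± 0.22 in 6 of 6 mice (exact permutation test, p = 0.031, adjusted p = 0.0417). A p of 0.031 is the smallest that 6 mice can give. It states only that 6 of 6 mice lay on the same side, and not how large the difference was. The 12 comparisons share chains and kits, so they are not independent of each other.

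Fga was also lower against Fgg, with differences of -0.34 in Pico minus TruSeq and -0.59 in V4 minus TruSeq, each in 6 of 6 mice (exact permutation test, adjusted p = 0.0417). Fgb against Fgg was higher than in TruSeq by 0.18 in both Pico and V4, in 6 of 6 mice each (exact permutation test, adjusted p = 0.0417), and in V4 the differences ran from 0.04 to 0.36. Between Pico and V4 the ratio of Fgb to Fgg differed by 0.00088 ± 0.11, with 3 of 6 mice to each side (exact permutation test, adjusted p = 0.969). Fga against Fgb was higher in Pico than in V4 in 5 of 6 mice, by 0.25, which did not pass (exact permutation test, adjusted p = 0.102). Mouse U9576 was the exception, with log2 ratios of -0.31 in Pico and -0.19 in V4.

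Fgl1 was compared with the geometric mean of the chains. Its log2 ratio averaged -4.12 (Pico), -3.49 (V4) and -3.78 (TruSeq), and the 3 kits differed from each other in 6 of 6 mice. The differences were -0.34 for Pico minus TruSeq, 0.28 for V4 minus TruSeq and -0.62 for Pico minus V4 (exact permutation test, adjusted p = 0.0417 each).

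Within a kit, the ratios were compared between treatments with an exact permutation test, which cannot go below p = 0.1 with 3 mice against 3. The log2 ratio of Fgl1 to the chains was -4.39 to -4.19 after IL-1β and -4.11 to -3.73 after saline in Pico, and -4.15 to -3.82 and -3.65 to -3.48 in TruSeq. The groups did not overlap in these kits, and the mean differences were -0.41 (SE 0.13) and -0.46 (SE 0.11) (exact permutation test, two-sided, p = 0.1 each, adjusted p = 0.3 over 12 comparisons). In V4 they overlapped, with a mean difference of -0.23 (SE 0.15; exact permutation test, p = 0.3). Read as counts, Fgl1 went from 0.0577 to 0.0753 of the chain mean in the saline libraries of Pico to 0.0477 to 0.0547 after IL-1β.

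The ratios among the chains were compared in the same way. The log2 ratio of Fgb to Fgg had a mean difference of -0.14 (SE 0.06) in Pico, -0.24 (SE 0.13) in V4 and -0.08 (SE 0.05) in TruSeq, and the groups did not overlap in Pico (exact permutation test, p = 0.1, 0.2 and 0.2). For Fga to Fgb it was 0.01, 0.10 and 0.09, without overlap in TruSeq, where the saline libraries lay at 0.21 to 0.28 and the IL-1β libraries at 0.31 to 0.35 (exact permutation test, p = 0.1). The largest gap between the log2 fold changes of 2 chains was 0.137 within Pico, 0.243 within V4 and 0.087 within TruSeq.

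The genes around the fibrinogen cluster moved in different ways. Plrg1, a splicing factor gene 5719 bases beyond Fgb, rose by a log2 fold change of 1.05 in Pico, 0.68 in V4 and 1.03 in TruSeq (limma-voom adjusted p = 0.00608, 0.0496 and 0.000122). Lrat, the retinol esterifying enzyme of stellate cells, lies 103886 bases beyond Fgg on the other side and fell by 1.85, 2.27 and 1.33 on the log2 scale (limma-voom adjusted p = 0.000318, 0.0439 and 0.000992, and 0.0609 in V4 with TMM factors). Rbm46, the next gene, had at most 10 counts in a library. Tlr2, a receptor for bacterial lipoproteins 786470 bases beyond Fgb, rose by 5.27, 6.18 and 5.66.

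Next to Fgl1, the gene model Gm16348 at 2983 bases was not called, and its saline libraries ran from 0 to 84 counts in Pico. Pcm1, a centriolar satellite gene at 24603 bases, rose in Pico by 0.71 (limma-voom adjusted p = 0.00201) and had a log2 fold change of 0.68 in V4 and 0.52 in TruSeq, where it was not called, although it passed in TruSeq with TMM factors (log2 fold change 0.68, limma-voom adjusted p = 0.0374). Mtus1, at 57708 bases on the other side, had -0.11, -0.12 and -0.09 and was not called, and Gm16192 had at most 6 counts.

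By the root mean square difference of log2(CPM + 1), centred in each kit, over 18 libraries and 8960 genes averaging 20 counts or more with each kit, those most like the mean of the chains were Serpina10, an inhibitor of coagulation factor X (0.115), Itih4, an inter-alpha-trypsin inhibitor (0.145), Hpx, the heme carrier hemopexin (0.148), Hp, the hemoglobin carrier haptoglobin (0.15), and Pnp, a purine salvage enzyme (0.163). Fgl1 came in place 19 (0.232). The genes most like Fgl1 were Flot1 (0.169), Mvd (0.185), Stap2 (0.201), Slc6a8 (0.203) and Gm6055 (0.216), with Fgb in place 6 (0.222), Fga in place 9 (0.226) and Fgg in place 23 (0.27). The log2 fold change of Serpina10 was 1.76, 1.64 and 1.78 in Pico, V4 and TruSeq, and that of Flot1, a membrane raft protein gene, 1.46, 1.56 and 1.68.

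Fibrinogen was set beside the genes of the proteins it acts with. Of 22 genes of coagulation and fibrin crosslinking tested in each kit, 2 rose and 10 fell in Pico, 0 rose and 5 fell in V4, and 2 rose and 14 fell in TruSeq. In these kits 6.78%, 3.6% and 12.3% of all genes rose and 10.8%, 7.41% and 21.8% fell, so the rises in Pico and TruSeq were near that share. The list had a median log2 fold change of -0.27, -0.44 and -0.46, beside -0.12, -0.22 and -0.17 for all genes. The genes that rose were Thbd, thrombomodulin, by 1.88 in Pico and 1.21 in TruSeq, and F13a1, the catalytic subunit of factor XIII, by 3.32 and 3.48, at 26 counts or fewer in each library. Serpinc1, antithrombin, fell in Pico (-0.24) and TruSeq (-0.25), and Kng1, kininogen, in TruSeq (-0.33). With TMM factors neither Serpinc1 nor Kng1 passed, and 2, 0 and 3 genes of the list rose and 9, 4 and 11 fell. Prothrombin, F2, had -0.17, -0.14 and -0.01 and was not called.

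Fibrinolysis, which dissolves fibrin, had 4 of 11 genes higher and 2 lower in Pico, 4 of 10 and 1 in V4, and 5 of 12 and 2 in TruSeq, with medians of 0.17, 0.20 and 0.41. All genes had medians of -0.116, -0.224 and -0.172, with 6.78%, 3.6% and 12.3% higher and 10.8%, 7.41% and 21.8% lower. The falls of the list in TruSeq were thus not above the share of all genes. Cpb2, which slows fibrinolysis by trimming fibrin, rose by 0.80, 0.70 and 0.67. Serping1, the C1 inhibitor, rose in TruSeq (0.27), with 0.09 in Pico and 0.22 in V4. Plg, plasminogen, fell by 0.33 in Pico and 0.26 in TruSeq, of which the second did not pass with TMM factors (limma-voom adjusted p = 0.395), and Hrg, histidine-rich glycoprotein, fell by 0.61 and 0.70 in these kits. With TMM factors 4, 4 and 7 genes of the list rose and 2, 1 and 1 fell.

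Other genes with a fibrinogen-related domain were called in both directions, which also held for all genes. Of those tested, 1 of 13 rose and 3 fell in Pico, 1 of 15 rose and 1 fell in V4, and 2 of 15 rose and 7 fell in TruSeq, with medians of -0.20, -0.74 and -0.79. Of all genes 6.78%, 3.6% and 12.3% rose and 10.8%, 7.41% and 21.8% fell, with medians of -0.116, -0.224 and -0.172. The rises in Pico and TruSeq and the falls in V4 were thus near the share of all genes. Angptl4, an inhibitor of lipoprotein lipase, rose by 0.93 in V4 and 0.89 in TruSeq. Angpt2, an angiopoietin, rose by 3.07 in Pico and 2.17 in TruSeq, at up to 54 counts, and was not called in V4 (2.11). Fcna, a ficolin, fell in TruSeq by 0.79. The counts with TMM factors were 2, 1 and 3 higher and 3, 1 and 7 lower.

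The signalling genes upstream of fibrinogen numbered 24, of which 14 rose and 4 fell in Pico. In V4, 8 rose and 2 fell, and in TruSeq 14 rose and 4 fell, with medians of 0.67, 0.45 and 0.68. For all genes the medians were -0.116, -0.224 and -0.172, and 6.78%, 3.6% and 12.3% rose and 10.8%, 7.41% and 21.8% fell. The falls of the list were near the share of all genes in V4 and not above it in TruSeq. Il1r1, the IL-1 receptor, rose by 3.65, 2.91 and 3.41, and its partner Il1rap fell by 0.50, 0.65 and 0.66, which did not pass with TMM factors in Pico and V4. Stat3 rose by 1.69, 1.81 and 1.68, while Il6 itself had at most 3 counts in a library. The liver factor gene Hnf4a rose in Pico (0.65) and TruSeq (0.91), and Cebpa fell by 1.15, 0.94 and 1.16, of which the V4 value did not pass with TMM factors (limma-voom adjusted p = 0.0841). Of the other C/EBP genes of the list, Cebpd rose by 1.76, 2.06 and 1.79, and Cebpb rose by 1.07 in Pico and 1.27 in TruSeq but had -1.40 in V4, where it was not called (limma-voom adjusted p = 0.129). TMM factors gave 14, 9 and 16 higher and 3, 0 and 4 lower.

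Among the other acute-phase proteins, the list of the IL-6 type (class 2), to which fibrinogen belongs, had 10 of 15 genes higher in each kit and 4, 3 and 4 lower in Pico, V4 and TruSeq, with medians of 0.93, 1.0 and 0.96. The shares over all genes were 6.78%, 3.6% and 12.3% higher and 10.8%, 7.41% and 21.8% lower. Hpx rose by 1.93, 1.97 and 2.19 and Itih4 by 1.71, 1.45 and 1.99. The genes that fell were copies of Serpina1, alpha-1-antitrypsin, such as Serpina1b at -0.32, -0.44 and -0.45, and these copies share nearly identical reads, so single values are uncertain. With TMM factors 0, 0 and 3 of them fell. In the list of the IL-1 type (class 1), 11, 10 and 12 of 12 genes rose and 0 fell, with medians of 2.32, 2.21 and 2.38, and Hp rose by 1.88, 1.88 and 2.19 and C3 by 0.59, 0.46 and 0.83. The members' log2 fold changes of 1.41 to 2.02 lay above the medians of the first list and below those of the second. The medians of the first list include the Serpina1 copies, which lower them. Among its genes that rose, some lay above the members, such as Serpina3n (4.03, 3.95 and 4.19), and some below, such as Cp (0.925, 0.742 and 0.959). The place of the members between the 2 medians is thus not a place between the genes of the 2 lists.

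The genes of the secretory path numbered 17, of which 8 rose in Pico, 4 rose in V4 and 11 rose in TruSeq, and 1 fell in each. Hspa5, the chaperone BiP, rose by 1.37, 1.27 and 1.64 and Hsp90b1 by 0.75, 0.70 and 0.95, while Lman1, the cargo receptor for coagulation factors V and VIII, was the gene that fell (-0.52, -0.75 and -0.56). TMM factors raised the number that rose to 12, 6 and 13. Of the receptors for fibrinogen, fibrin or FGL1, 4 of 13 rose and 2 fell in Pico, 2 of 12 rose and 0 fell in V4, and 3 of 13 rose and 3 fell in TruSeq, and with TMM factors 4, 2 and 4 rose and 0, 0 and 3 fell. Over all genes, with library totals, 6.78%, 3.6% and 12.3% rose and 10.8%, 7.41% and 21.8% fell, so the falls in TruSeq were near that share. The receptor list had medians of 0.103, 0.0953 and -0.102, beside -0.116, -0.224 and -0.172 for all genes. Icam1 rose by 1.62, 1.78 and 1.99, and Itgam, an integrin chain of neutrophils and macrophages, by 4.63, 3.95 and 2.42, at up to 93 counts. Itgb3, an integrin chain of platelets and other cells, rose by 1.91 in Pico and 1.38 in TruSeq, and Asgr1, the hepatic asialoglycoprotein receptor, fell by 0.38 and 0.50, of which the Pico value did not pass with TMM factors (limma-voom adjusted p = 0.198). Lag3, the receptor of FGL1, had at most 11 counts in a TruSeq library, where it fell (-2.26), and at most 1 in Pico.

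Among plasma carrier proteins of the liver, more fell than rose, which also held for all genes. Over all genes 10.8%, 7.41% and 21.8% fell and 6.78%, 3.6% and 12.3% rose in Pico, V4 and TruSeq. The list had a median log2 fold change of -0.32, -0.237 and -0.335, beside -0.116, -0.224 and -0.172 for all genes, so in V4 the 2 were close. Of 10, 7 fell in Pico, 4 in V4 and 6 in TruSeq, while 0, 0 and 1 rose, and with TMM factors 4, 1 and 3 fell. Alb, albumin, fell by 0.43, 0.56 and 0.61, and Trf, transferrin, rose in TruSeq by 0.30.

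**Figure D4:**
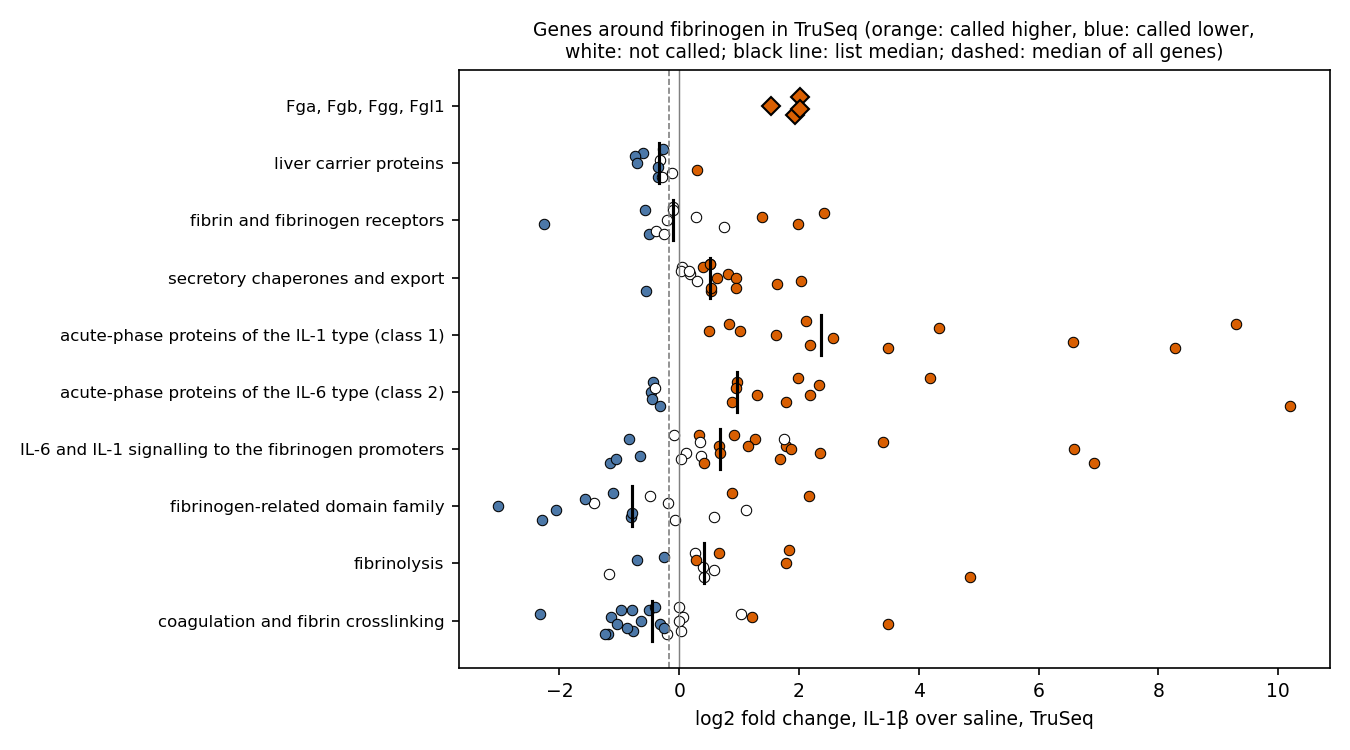
Log2 fold change of IL-1β over saline in TruSeq for each gene of the lists, with 1 point per gene, colored by its call, a black line at the median of the list and a dashed line at the median of all genes (-0.17). The 4 members lie at 1.53 to 2.02, between the median of the class 2 acute-phase list (0.96, lowered by the Serpina1 copies) and that of the class 1 list (2.38).

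The hepatocyte markers were present in every library, at 8 of 8 listed in each kit. Their summed level was 51500 to 56700 CPM after IL-1β and 62800 to 75900 CPM after saline in Pico, 44800 to 49200 and 54600 to 67200 CPM in V4, and 71000 to 77200 and 96100 to 114000 CPM in TruSeq. The sum was thus lower where the fibrinogen genes were higher. In TruSeq Alb alone held most of it, at a mean of 49950 CPM after IL-1β and 76520 CPM after saline. Single hepatocyte markers went both ways, with 2 of 8 called higher and 6 lower in Pico. In V4, 1 was called higher and 3 lower, and TruSeq had 2 higher and 4 lower. Neutrophil markers moved with the members, with 6 of 6 listed higher in Pico, 5 of 6 in V4 and 6 of 7 in TruSeq. Their sum was 42.0 to 58.9 CPM after IL-1β and 0.971 to 5.14 CPM after saline in Pico, 42.1 to 82.4 and 2.15 to 5.24 CPM in V4, and 47.3 to 92.6 and 3.36 to 6.16 CPM in TruSeq, where Ly6g had at most 3 counts. In TruSeq the macrophage sum went from 134 to 223 CPM down to 65.8 to 94.5 CPM, the endothelial sum from 149 to 172 down to 79.9 to 101 CPM, and the stellate sum from 276 to 312 down to 144 to 190 CPM, and these sums did not overlap between treatments in Pico or V4 either. The marker calls of every cell type stand beside 6.78%, 3.6% and 12.3% of all genes called higher and 10.8%, 7.41% and 21.8% called lower in Pico, V4 and TruSeq. Of 6 endothelial markers 2, 0 and 1 were called higher and 3, 2 and 4 lower in these kits. The endothelial calls higher in V4 and TruSeq were near the share of all genes. Of 7 macrophage markers 0, 0 and 1 were called higher and 4, 2 and 5 lower. Of 5 stellate markers 0 were called higher in any kit and 3, 2 and 4 lower. Platelet markers stayed at 1.49 to 7.17 CPM and lymphocyte markers at 4.91 CPM or less in all libraries. Cholangiocyte markers overlapped between treatments in each kit, at 42.7 to 51.3 CPM after IL-1β and 46.2 to 64.7 CPM after saline in TruSeq. The erythroid sum overlapped in V4 (350 to 858 and 605 to 986 CPM) and TruSeq (141 to 213 and 206 to 230 CPM) but not in Pico, where it was 127 to 174 CPM after IL-1β and 185 to 191 CPM after saline, and 0 of 5 erythroid markers were called in any kit. The part of these shifts in the fibrinogen result was not tested.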

How the data were processed

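Liver RNA of 6 mice was profiled with 3 kits, in 18 libraries. The deposited values are counts: the authors aligned the reads with GSNAP to mm9, took out ribosomal reads, drew the same number of reads from every library of a kit with PORT, and counted whole reads per gene that followed annotated junctions. Reads of the sense strand were counted for the stranded kits (Pico, TruSeq) and reads of both strands for V4. The 3 tables were normalized separately. The labels do not state which of 2 Pico runs is in the table.

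Groups were taken from the sample labels. Separate limma-voom fits were made per kit (limma 3.58.1, R 4.3.3) on library totals, over genes with at least 1 count in the kit. Differences between kits were fitted as an interaction, and ratios were compared with exact permutation tests. The alternatives were TMM factors, edgeR 4.0.16, DESeq2 1.42.0, a filter of 10 counts in 3 libraries, no filter, 1 fit of 18 libraries, the mouse as a replicate block, and leaving out each mouse. Only the limma-voom fit within a kit was tried on simulated data, and the interaction fits, the alternatives and the permutation tests were not. The mouse number pairs the libraries, since each mouse's RNA entered every kit. Deviations of the same mouse from its group mean correlated across genes at 0.184 to 0.428 (Pico with TruSeq), 0.175 to 0.435 (V4 with TruSeq) and 0.0789 to 0.234 (Pico with V4).

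The members and the gene, marker and motif lists were chosen with earlier results of these data known, and the motifs after the promoters had been seen. Each list names the 2 called genes that were higher and the 2 that were lower with the highest mean CPM in TruSeq, and of the neighbours the 2 nearest listed genes on each side. F2, Stat3, Cebpb, Cebpd, Il6, Itgam and Lag3 were added for their known roles after their values were seen, and 1 gene within the rule is not reported here. Coordinates are those of the GENCODE annotation of mm9, since those in the tables were padded. Summaries used Python 3.11.15, pandas 2.3.3 and scipy 1.17.1.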

Additional observations from a re-analysis of the deposited data

How the results depend on the processing

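The rise of the 4 genes after IL-1β kept its direction and its call in 156 of 156 values under other scalings, tests, filters and left-out mice, of which 12, those with no filter, repeat the reported values because that fit already held every gene with at least 1 count, with log2 fold changes of 1.229 to 2.173 and a largest adjusted p of 0.00527 (limma-voom, edgeR or DESeq2). The number of genes called, the background for the lists, moved more: 3179 genes in Pico against 1765 to 2603 without 1 mouse, 1986 in V4 against 908 to 2093 without 1 mouse, and 6614 in TruSeq against 5114 to 5606. In Pico the count moved by over 1.5 times without mouse I9579 (1997), I9582 (1765) or I9583 (2034), and in V4 without U9574 (1143), U9575 (908), I9579 (1196), I9582 (969) or I9583 (1059). A single fit of all 18 libraries called 4698 in V4 and 4239 in TruSeq, and with the mouse as a replicate block 4726 and 4311. The replicate block changed no call of a member. Differences in response near 0 turned their sign: V4 minus TruSeq for Fgl1 (0.00219) became -0.0169 with TMM factors and -0.0127 with edgeR and ran from -0.0221 to 0.0287 without 1 mouse. Pico minus V4 for Fga (0.0334) became -0.0481, -0.0533 and -0.0451 with TMM factors, edgeR and DESeq2, and for Fgg (0.0105) became -0.0714, -0.0627 and -0.0572 and ran from -0.0666 to 0.129 without 1 mouse. Without the pairing by mouse (no replicate block), the ratio of Fgl1 to the chains no longer passed between Pico and TruSeq (-0.337, exact permutation test, adjusted p = 0.0837) and between V4 and TruSeq (0.285, adjusted p = 0.0874), nor did Fgb to Fgg between V4 and TruSeq (0.175, adjusted p = 0.0857), whereas Fga to Fgb (0.251, adjusted p = 0.0227) and Fga to Fgg (0.252, adjusted p = 0.0148) passed between Pico and V4. With 5 mice left, the paired test cannot reach 0.05, and the ratios were judged by their values alone. The merged exon length moved 6 of 9 chain shares beyond their SD between mice. The cause of these changes was not tested, beyond the smaller number of mice.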
